A study of Homo sapiens with 6 samples.

Results

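The genes described here are GPNMB, a glycoprotein of lysosomal and plasma membranes, and 8 genes of the lysosomal signalling route that lies upstream of it: the transcription factors MITF, TFEB and TFE3, the folliculin gene FLCN with its partners FNIP1 and FNIP2, and the Rag GTPase genes RRAGC and RRAGD. These 9 genes were selected by name from 57773 genes in the counts table, with the change of GPNMB after Apatinib already known. All 9 genes were among the 16290 genes that passed the filter on low counts. The values come from RNA sequencing of the liposarcoma line SW872, an established line of human origin. The Apatinib group received 18 μM Apatinib, a tyrosine kinase inhibitor directed at VEGFR2, for 24 h (n = 3), and the control group was left untreated (n = 3). Both groups are the same single cell line, with no genetic change described between them. These data hold RNA only, so neither the phosphorylation nor the position in the cell of any of these proteins is given by them. By western blot the study reported lower p-mTOR at higher Apatinib concentrations in liposarcoma cells, with mTOR unchanged. Its blots did not include the proteins of these 9 genes.

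MITF, TFEB and TFE3 belong, with TFEC, to the MiT/TFE family of basic helix-loop-helix leucine zipper factors, which bind E-box sequences in the promoters of lysosomal and autophagy genes. When amino acids are plentiful, Rag GTPase dimers, each of RagA or RagB with RagC or RagD, recruit these factors to the lysosome, where mTORC1 phosphorylates them and they are held in the cytoplasm. The FLCN-FNIP complex is the GTPase-activating protein for RagC and RagD, and GPNMB is a widely used transcriptional readout of TFE3 and MITF activity, for example in cells that lack FLCN.

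The library totals ran from 17043314 to 22067558 counts. Controls 1 and 2 were the nearest pair of libraries within a group, with a chi-square per degree of freedom of 2.27 over genes, against 18.2 to 44.5 for the other pairs within a group. Pairs between the groups ran from 26.5 (Apatinib 3 and control 3) to 78.4 (Apatinib 1 and control 2), so the 2 ranges overlapped. Counts of calls that change when these 2 libraries are left out or summed are given beside the results. Over all genes tested the median log2 fold change was 0.00.

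GPNMB (ENSG00000136235) had counts of 856, 896 and 848 in Apatinib 1, 2 and 3, and of 232, 226 and 228 in control 1, 2 and 3. Scaled to library size as CPM, these were 49.8, 50.6 and 48.5 CPM with Apatinib and 13.4, 12.4 and 10.4 CPM in the controls. The 3 treated libraries lay close together and far above the controls, and the lowest treated library was 3.62 times the highest control. The group means were 49.6 ± 1.03 CPM (SD, n = 3) and 12.1 ± 1.50 CPM (SD, n = 3), a log2 fold change of 2.04 (SE 0.139), or 4.11-fold. By this log2 fold change GPNMB ranked 28 of the 16290 genes tested. Leaving out each library in turn gave log2 fold changes from 1.95 to 2.11. Because GPNMB was chosen for this difference, the values are a description and carry no test. Per transcript length, in FPKM (read fragments divided by transcript length and library depth), GPNMB was at 13.2, 14.0 and 13.1 with Apatinib and at 3.85, 3.12 and 2.68 in the controls. That moved it from the 36.0 percentile of the tested genes in the control group to the 70.7 percentile in the Apatinib group.

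**Figure D1:**
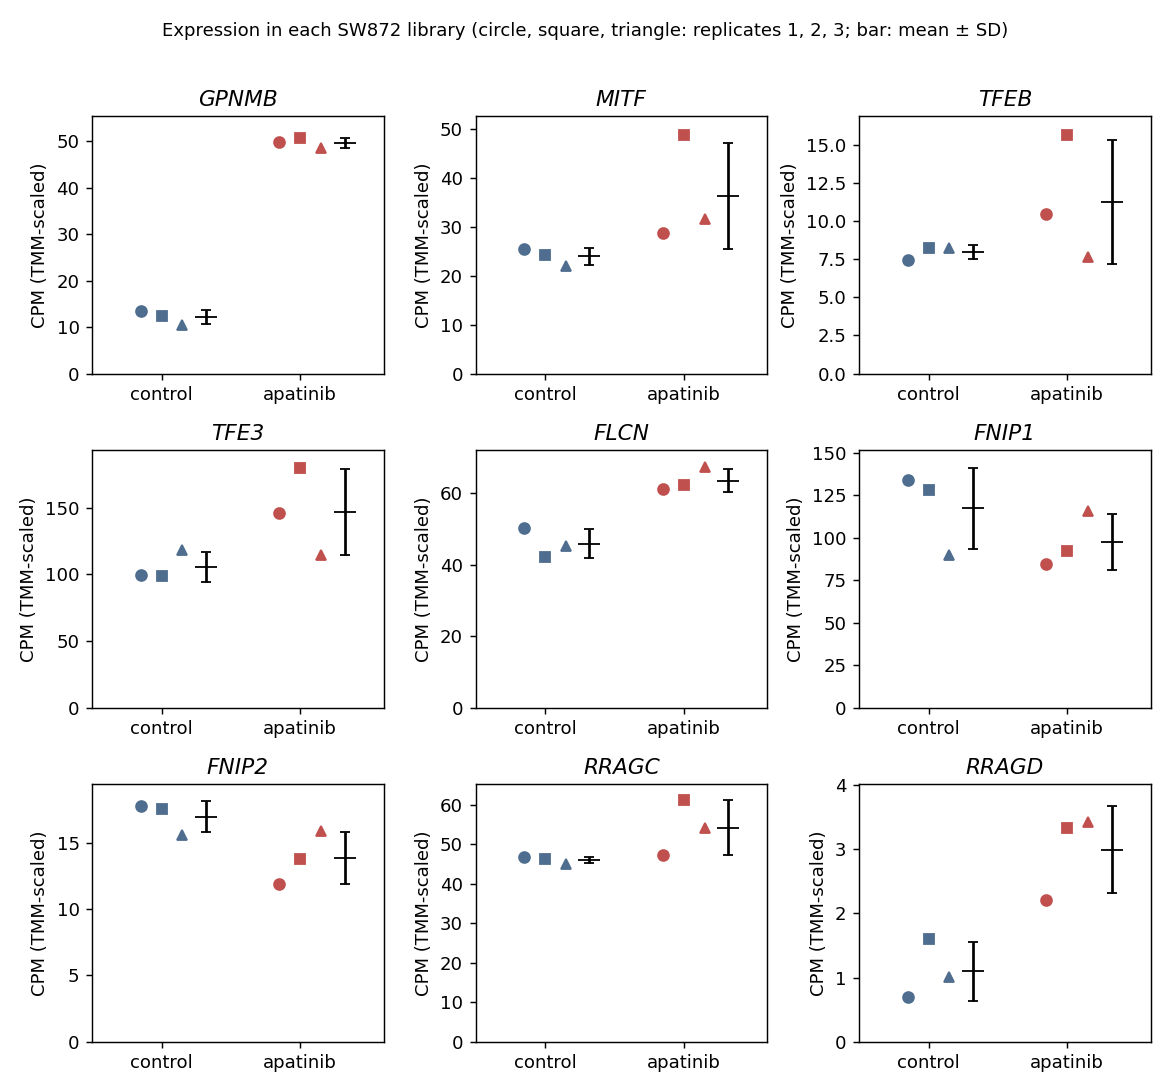
Levels of the 9 genes in each SW872 library, in TMM-scaled CPM on linear axes from 0, with circles, squares and triangles for replicates 1, 2 and 3 and a bar for the mean ± SD of each group. GPNMB lies at 48.5 to 50.6 CPM with Apatinib and at 10.4 to 13.4 CPM in the controls, while the groups overlap for TFEB, TFE3, FNIP1 and FNIP2.

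The promoters of these genes were read for the E-box letters that MiT/TFE factors recognise, because GPNMB is the gene of the set with the largest difference. RefSeq promoters on GRCh38.p14, from 250 bases before to 50 bases after each start, were found for 8 of the 9 genes (13 promoters), and RRAGD had no entry. The letters CACGTG, the core of the motif bound by MiT/TFE factors in lysosomal genes, were searched on both strands, as were CATGTG, the related M-box core, the longer TCATGTGA, which contains CATGTG, and TCACGTGA, which contains CACGTG. The stretches that hold the cores in GPNMB, FNIP1 and RRAGC are shown 5′ to 3′ on the strand of the gene, with the cores in capitals. In GPNMB the core is read on the other strand and so appears as CACATG.
GPNMB, chr7:23246525-23246774, plus strand: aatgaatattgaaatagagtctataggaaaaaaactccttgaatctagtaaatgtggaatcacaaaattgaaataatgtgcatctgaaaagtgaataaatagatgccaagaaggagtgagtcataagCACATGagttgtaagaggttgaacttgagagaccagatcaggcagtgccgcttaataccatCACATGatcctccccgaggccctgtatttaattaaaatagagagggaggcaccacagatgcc
FNIP1, chr5:131797086-131797212, minus strand: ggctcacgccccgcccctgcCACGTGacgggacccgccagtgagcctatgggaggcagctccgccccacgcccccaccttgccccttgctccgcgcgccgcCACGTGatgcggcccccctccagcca
RRAGC, chr1:38859859-38859904, minus strand: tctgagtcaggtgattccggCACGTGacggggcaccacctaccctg

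In GPNMB the 2 CATGTG matches lie 123 and 62 bases before the start. In FNIP1 the 2 CACGTG matches lie 175 and 94 bases before it, and in RRAGC the 1 match lies 112 bases before it. A promoter of FNIP2 also held CATGTG, 142 bases before its start. TCATGTGA was found in GPNMB and FNIP2, beside 1% of all promoters, and TCACGTGA in none of the 13, beside 0.98%. No match of either core was found in the windows of MITF, TFEB, TFE3 and FLCN. Of all 35116 promoters of this length, 7.26% held CACGTG and 11.1% held CATGTG. Of 40 promoters found for 28 of the 44 lysosomal genes described below, 14 held CACGTG and 8 held TCACGTGA. A match describes the letters in the window and does not show that a factor binds there.

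Among the transcription factors, TFE3 was the most abundant in SW872, and the log2 fold changes of MITF, TFEB and TFE3 lay within their standard errors of each other. MITF (ENSG00000187098), the melanocyte and osteoclast regulator of the family, was at 28.7, 48.8 and 31.5 CPM with Apatinib and at 25.6, 24.4 and 22.0 CPM in the controls. The treated libraries were all above the controls, but Apatinib 2 stood well apart from Apatinib 1 and 3. The means were 36.3 ± 10.9 and 24.0 ± 1.82 CPM (SD, n = 3 each), and the log2 fold change was 0.60 (SE 0.190), which was 0.34 without Apatinib 2.

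TFEB (ENSG00000112561), the regulator of lysosome biogenesis, was at 10.5, 15.6 and 7.67 CPM with Apatinib and at 7.45, 8.25 and 8.25 CPM in the controls. Apatinib 3 lay within the range of the controls and Apatinib 2 was again the highest. The log2 fold change was 0.50 (SE 0.234), and it was 0.19 without Apatinib 2. TFE3 (ENSG00000068323), a close homologue of TFEB with overlapping targets, was at 146, 179 and 115 CPM with Apatinib and at 99.6, 98.4 and 118 CPM in the controls. Apatinib 3 was below control 3, so the groups overlapped. The means were 147 ± 32.3 and 105 ± 11.1 CPM (SD, n = 3 each), and the log2 fold change was 0.48 (SE 0.161), and it was 0.31 without Apatinib 2.

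**Figure D2:**
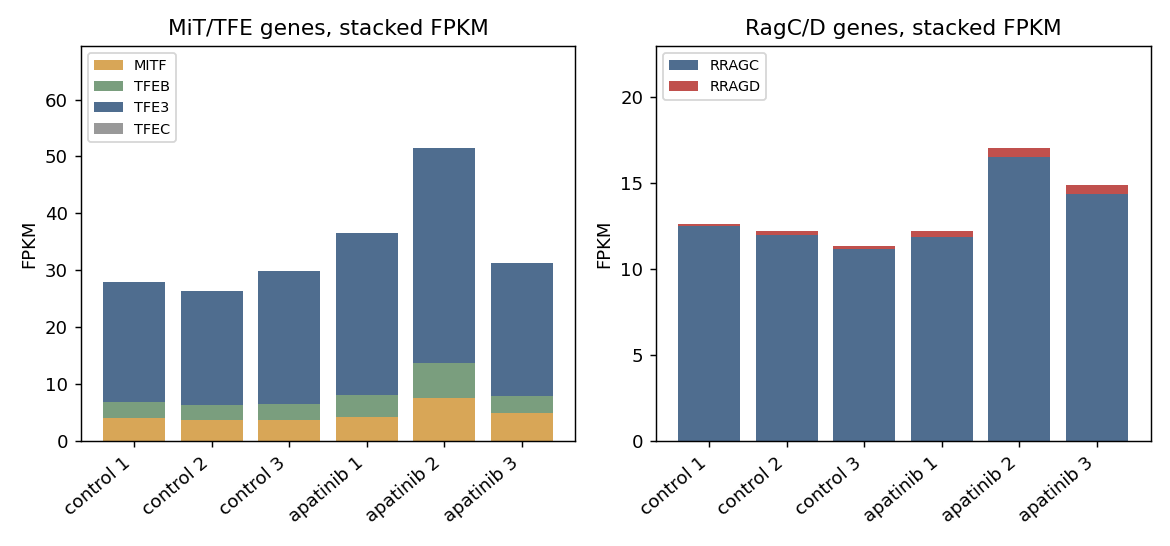
Stacked FPKM of the MiT/TFE genes (left) and of RRAGC and RRAGD (right) in each of the 6 libraries, on axes from 0. TFE3 makes up most of each MiT/TFE bar and Apatinib 2 has the tallest one (51.4 FPKM), and RRAGD is a thin layer on RRAGC, at 2.72 to 3.40% of the sum with Apatinib and 0.806 to 1.85% in the controls.

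On the FPKM scale, which allows levels of different genes to be compared, the summed level of MITF, TFEB, TFE3 and TFEC was 36.5, 51.4 and 31.2 in Apatinib 1, 2 and 3 and 28.0, 26.3 and 30.0 in control 1, 2 and 3. The sum in Apatinib 2 was the highest of the 6 libraries. The make-up of that sum overlapped between the groups. TFE3 held 73.4 to 78.0% of it with Apatinib and 75.1 to 78.2% in the controls, and MITF held 11.6 to 15.8% and 12.4 to 14.9%. TFEC, the remaining member of the family, had 1 count in 1 control library and 0 in the others, and was not tested.

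FLCN was higher in every treated library, whereas its partners FNIP1 and FNIP2 had log2 fold changes below 0 with overlapping groups. FLCN (ENSG00000154803) was at 61.1, 62.3 and 67.3 CPM with Apatinib and at 50.3, 42.1 and 45.3 CPM in the controls. The lowest treated library was 1.21 times the highest control. The means were 63.5 ± 3.28 and 45.9 ± 4.15 CPM (SD, n = 3 each), and the log2 fold change was 0.47 (SE 0.122), with values from 0.41 to 0.53 when single libraries were left out. Of the FLCN exon bases, 11.9% are shared with AC055811.2 on the same strand in GENCODE. How reads in these bases were counted is not known.

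FNIP1 (ENSG00000217128) was at 84.3, 92.2 and 116 CPM with Apatinib and at 134, 128 and 89.7 CPM in the controls. Control 3 lay within the treated range, and Apatinib 3 was the highest treated library. The log2 fold change was -0.27 (SE 0.171), reaching -0.42 without control 3 and -0.17 without control 1. FNIP2 (ENSG00000052795) was at 11.9, 13.8 and 15.9 CPM with Apatinib and at 17.8, 17.5 and 15.6 CPM in the controls. Apatinib 3 was above control 3, and the other treated libraries were below all controls. The log2 fold change was -0.29 (SE 0.155), and it was -0.19 without Apatinib 1. In FPKM, FNIP1 held 88.5 to 89.3% of the sum of both partners with Apatinib and 86.3 to 89.9% in the controls.

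Of the RagC and RagD genes, RRAGC was abundant and differed little, and RRAGD was near the bottom of the tested range and differed more. RRAGC (ENSG00000116954) was at 47.3, 61.3 and 54.2 CPM with Apatinib and at 46.7, 46.4 and 45.1 CPM in the controls. Apatinib 1 was only 1.01 times the highest control. The log2 fold change was 0.24 (SE 0.129), and it was 0.15 without Apatinib 2. A share of 22.9% of the RRAGC exon bases is also annotated to AL139260.2 on the same strand.

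RRAGD (ENSG00000025039), which encodes RagD, had counts of 38, 59 and 60 in the treated libraries and of 12, 29 and 22 in the controls. This was 2.21, 3.33 and 3.43 CPM against 0.693, 1.59 and 1.01 CPM. All treated libraries were above all controls, at counts low enough that counting error is part of the spread. The means were 2.99 ± 0.679 and 1.10 ± 0.458 CPM (SD, n = 3 each), and the log2 fold change was 1.44 (SE 0.332), or 2.71-fold, with 1.21 without control 1 and 1.79 without control 2. In FPKM, RRAGD held 2.72 to 3.40% of the RagC and RagD sum with Apatinib and 0.806 to 1.85% in the controls. The RRAGC level was 76.9 times that of RRAGD in the control group and 31.7 times in the Apatinib group. The genes for the dimer partners did not pass the test. RRAGA, which encodes RagA, was at 145 ± 19.1 and 144 ± 13.4 CPM (SD, n = 3 each; log2 fold change 0.01, edgeR FDR = 0.969), and RRAGB was at -0.01 on that scale (edgeR FDR = 0.983). PMEL, the melanosome protein related to GPNMB, had counts of 20, 4 and 8 in the treated libraries and of 16, 18 and 14 in the controls (log2 fold change -0.46, edgeR FDR = 0.589).

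**Figure D3:**
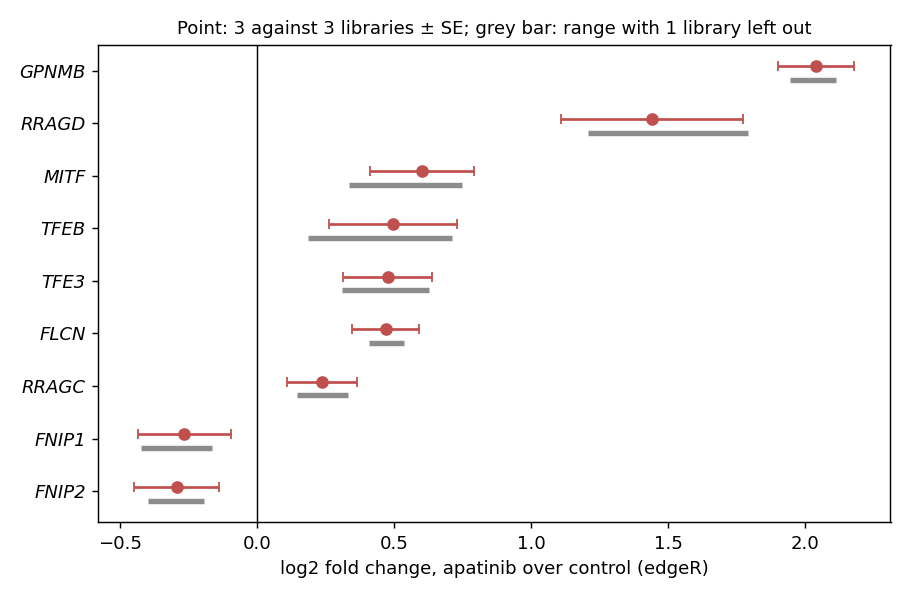
Log2 fold change of each of the 9 genes (Apatinib over control, edgeR) on a linear axis, with points and error bars for the estimate ± SE and grey bars for the range when 1 library is left out. GPNMB at 2.04 and RRAGD at 1.44 lie apart from the other 7 genes, which run from -0.29 to 0.60.

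In the control group the FPKM order was TFE3 (21.5), FLCN (16.6), FNIP1 (13.9), RRAGC (11.9), MITF (3.84), GPNMB (3.22), TFEB (2.75), FNIP2 (1.75) and RRAGD (0.155). The libraries of FNIP1 overlapped those of both its neighbours, and GPNMB overlapped MITF and TFEB, so these orders lie within the spread. In the Apatinib group GPNMB, at 13.5 ± 0.490 FPKM (SD, n = 3), stood between RRAGC (14.3) and FNIP1 (11.8), and its libraries overlapped those of both.

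A differentially expressed gene (DEG) was called at the study's limits, an FDR below 0.05 with an absolute log2 fold change of more than 0.5. The study applied them to DESeq2 and they are applied here to edgeR. By edgeR, 2 of the 9 genes were DEGs, GPNMB and RRAGD, both higher with Apatinib. Over all genes tested 1866 were DEGs, a share of 11.5%, made up of 5.97% higher and 5.48% lower. The median log2 fold change of the 9 genes was 0.48, and 7 were above 0. In 5 genes all treated libraries were above all controls (GPNMB, MITF, FLCN, RRAGC and RRAGD), beside 17.5% of all genes tested, and in none were they all below, whereas 33.2% of all genes had no overlap in either direction. Since these genes were selected with the contrast known, nothing is read from these counts. Apatinib 2 was the highest treated library in 5 of the 9 genes. With DESeq2, with no filter on low counts and with the replicate block MITF also met the criteria, giving 3 of 9. The DEGs of all genes in these fits were 2046, 2559 and 2215. MITF also met the criteria without Apatinib 1, when 795 of all genes were DEGs. TFE3 met them without Apatinib 3 (2030 DEGs of all genes) and without control 3 (2594). Each of these fits also gave 3 of 9. Without control 1 only GPNMB met the criteria, and the DEGs of all genes then fell to 275. With 3 treated libraries, the p values below measure the spread between these libraries only. The methods of the study call them biological replicates, and the labels do not say whether they were separate cultures.

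Genes that the MiT/TFE factors are known to control were read from a list of 44 lysosomal genes, of which 43 were tested. A rise was called for 4 of them and a fall for 1, 5 DEGs in all or 11.6%, beside 11.5% of all genes tested. The log2 fold changes in the list had a median of 0.23, and 34 of its genes were above 0, against 50.3% of all genes. Without Apatinib 1 this median was 0.14. GAA, the lysosomal alpha-glucosidase, rose by 0.79 on the log2 scale (edgeR FDR = 0.00834). PSAP, the saposin precursor, rose by 0.64 (edgeR FDR = 0.0135), CTSD, the protease cathepsin D, by 0.68 (edgeR FDR = 0.0197) and CTSL, cathepsin L, by 0.55 (edgeR FDR = 0.0150). ATP6V1C1, a subunit of the vacuolar proton pump, named after its value was seen, fell by 0.61 on the log2 scale (edgeR FDR = 0.0304). No DEG of the list was left without control 1, without control 2 or with these 2 summed, when the DEGs of all genes were 275, 300 and 292. The log2 fold changes themselves were 0.73 to 0.90 for GAA, 0.58 to 0.72 for PSAP, 0.54 to 0.81 for CTSD, 0.49 to 0.62 for CTSL and -0.78 to -0.49 for ATP6V1C1 when single libraries were left out. ATP6V1C1 was also no DEG without Apatinib 1, without Apatinib 2 and by limma on either scale. CTSL was also no DEG without Apatinib 2, at 0.49, and CTSD was none without Apatinib 1. There were 3 DEGs of the list without Apatinib 1, when the DEGs of all genes were 795. At an FDR under 0.05 alone, 9 of the 43 genes passed, beside 12.9% of all genes tested. The untested gene ATP6V0C, a pump subunit, had 1 to 11 counts a library but a mean of 93.1 FPKM in the controls, and 57.5% of its exon bases are shared with AC093525.2 on the same strand. Of CTSD's exon bases 41.7% are shared with AC068580.4 on the same strand.

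Among 18 autophagy genes under the same factors, 3 rose and 1 fell, 22.2% of the list beside 11.5% of all genes tested. The log2 fold changes had a median of 0.10, and 15 of the 18 were above 0, against 50.3% of all genes. SQSTM1, the selective autophagy receptor p62, rose by 0.86 (edgeR FDR = 0.00375). WIPI1, a phosphoinositide-binding protein of the autophagosome, rose by 0.64 (edgeR FDR = 0.0152) and GABARAPL1, a homologue of LC3, by 0.56 (edgeR FDR = 0.0271). ATG9B, a membrane protein of autophagosome formation, fell by 1.16 on the log2 scale (edgeR FDR = 0.0297), at 15 to 46 counts a library. SQSTM1 alone met the criteria without control 1, without control 2 or with these 2 summed, and 2 genes met them without Apatinib 2. Of the 6 fits with a library left out, ATG9B lost its call in 4, and WIPI1 and GABARAPL1 in 3 each. Exons of SQSTM1, WIPI1 and ATG9B overlap genes on the opposite strand (MRNIP, ARSG and NOS3, by 20.7%, 24.3% and 12.3%). On the same strand GABARAP, BLOC1S1 and VPS33A share 30.5%, 29.8% and 21.5% with AC120057.2, BLOC1S1-RDH5 and AC048338.1. GABARAP had 28 to 55 counts a library at a control mean of 73.8 FPKM, and BLOC1S1 had 40 to 67 at 25.1 FPKM. Both were tested and are among the 15 genes above 0.

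**Figure D4:**
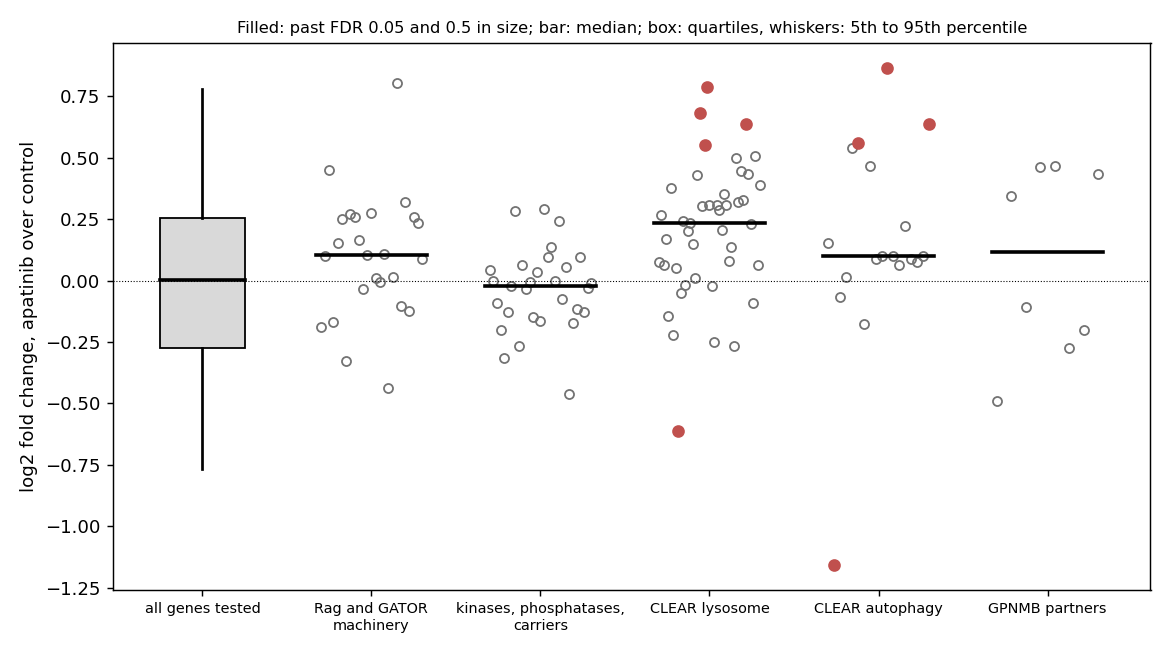
Log2 fold changes (Apatinib over control, edgeR) of the genes in each pathway list as points, filled where the gene is a DEG, with a bar for the list median and a box for the quartiles of all genes tested with whiskers at the 5th and 95th percentiles. The medians are 0.23 for the lysosome list, 0.10 for the autophagy and the Rag lists, 0.12 for the GPNMB partners and -0.02 for the kinases and carriers.

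The Rag and GATOR machinery, which reports amino acid supply to mTORC1 at the lysosome, held no DEG by edgeR with the filter and no block, or by DESeq2 or limma, among 25 genes tested of 28 listed, with 3 genes at an unadjusted p under 0.05 by edgeR, beside 30.6% of all genes tested, and a median log2 fold change of 0.10. SESN2, the leucine sensor Sestrin 2, had a log2 fold change of 0.81 (SE 0.374, edgeR FDR = 0.170), which was 0.0042 without Apatinib 2. SESN2 was the DEG of the list in the edgeR fits with no filter (log2 fold change 0.82, FDR = 8.954e-06) and with the replicate block (0.55, FDR = 0.0372). SEH1L, a subunit of GATOR2, was at -0.44 (edgeR FDR = 0.0511). SH3BP4, a binding partner of the Rag GTPases, was at 0.32 (edgeR FDR = 0.0833). SEH1L was a DEG without Apatinib 3. The list median was 0.064 without Apatinib 1, 0.030 without control 1 and 0.17 without control 3.

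The kinases, phosphatases and nuclear carriers that act on MiT/TFE factors also held no DEG among 29 genes by edgeR, DESeq2 or limma, with 2 genes at an unadjusted p under 0.05 by edgeR, beside 30.6% of all genes tested, and a median log2 fold change of -0.02. XPO1, the nuclear export receptor, was at -0.46 (edgeR FDR = 0.0698) and was a DEG without Apatinib 3 or without control 3. The list median ran from -0.093 without Apatinib 1 to 0.043 without Apatinib 2, and was also above 0 without control 3. PRKCA, a protein kinase C, was at 0.29 (edgeR FDR = 0.130), MAP4K3, an amino acid-responsive kinase, at -0.31 (edgeR FDR = 0.197) and MAPK3, the kinase ERK1, at 0.28 (edgeR FDR = 0.208), or 0.16 without Apatinib 1.

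The 8 partners and shedding enzymes of GPNMB held no DEG by edgeR, DESeq2 or limma, with 4 genes at an unadjusted p under 0.05 by edgeR, beside 30.6% of all genes tested, and a median log2 fold change of 0.12. CD44, a receptor for GPNMB, was at 0.46 (edgeR FDR = 0.0425) and ITGA5, an integrin subunit, at 0.46 (edgeR FDR = 0.0375). SDC4, a heparan sulfate proteoglycan, was at 0.43 (edgeR FDR = 0.0365), and all 3 missed the size limit of 0.5. ADAM10, a sheddase of GPNMB, was at -0.49 (edgeR FDR = 0.0750). Without Apatinib 3 the list held 3 DEGs and without control 3 it held 2, when the DEGs of all genes were 2030 and 2594. The list median was 0.011 without Apatinib 2.

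GPNMB and MITF are also abundant in melanocytes and macrophages, so markers of these cells were read beside them. Of the 10 macrophage and osteoclast markers 4 were tested, and PTPRC, CD163, AIF1 and TYROBP had 0 counts in every library. The summed FPKM of this list was 8.50 to 11.0 with Apatinib and 5.30 to 6.03 in the controls. ACP5, a lysosomal acid phosphatase named after its value was seen, rose from 58, 82 and 96 counts in the controls to 222, 144 and 160 (log2 fold change 1.30, edgeR FDR = 0.00762). The other tested markers of the list were CD14, lower in every treated library but short of the test (log2 fold change -0.53, edgeR FDR = 0.156, and -0.32 without Apatinib 3), CSF1R (0.18, edgeR FDR = 0.804) and CTSK (0.08, edgeR FDR = 0.856). Of the 10 melanocyte markers 5 were tested, none was a DEG and TYR was at 0 in every library. Their summed FPKM was 137 to 192 with Apatinib and 112 to 138 in the controls, nearly all of it TYRP1, which had 8572 to 12421 counts (log2 fold change 0.36, edgeR FDR = 0.104). The other 4 had log2 fold changes below 0, among them MLANA, with counts of 15, 4 and 11 in the treated libraries and of 20, 31 and 21 in the controls (log2 fold change -1.13, edgeR FDR = 0.118). Without Apatinib 2 the log2 fold change was -0.74 for MLANA and 0.23 for TYRP1. The part of these markers in the GPNMB and MITF values was not tested. The mesenchymal markers were all expressed, with a summed FPKM of 1778 to 2027 with Apatinib and 1465 to 1621 in the controls. Of these 8, COL3A1, a collagen, rose (log2 fold change 1.18, edgeR FDR = 0.00955), and the other 7 were not DEGs, from -0.08 for COL1A1 to 0.46 for COL1A2. Of the adipocyte markers ADIPOQ, FABP4 and CEBPA had 0 counts in every library, CEBPA being listed at 0.058 to 0.319 FPKM, and the summed FPKM was 23.1 to 32.3 against 21.9 to 24.4. Most of that sum was PPARG, the adipogenic nuclear receptor (log2 fold change 0.11, edgeR FDR = 0.597), and LPL, lipoprotein lipase, rose (log2 fold change 0.84, edgeR FDR = 0.0237). The epithelial markers summed to 186 to 222 FPKM against 155 to 187, with EPCAM, CDH1, KRT5 and KRT14 at 0 to 7 counts. Of the 3 tested, KRT8, a keratin, rose (log2 fold change 0.71, edgeR FDR = 0.0166), and KRT18 (0.28, edgeR FDR = 0.156) and CLDN4 (-0.16, edgeR FDR = 0.700) were not DEGs. The edgeR FDR without control 1 was 0.0564 for COL3A1, 0.0784 for LPL and 0.0957 for KRT8. Without control 2 it was 0.0831 for LPL and 0.0884 for KRT8, and without Apatinib 1 it was 0.0513 for KRT8. With controls 1 and 2 summed it was 0.0807 for LPL and 0.0886 for KRT8. By limma on log2(FPKM + 1) the adjusted p was 0.0634 for COL3A1, at a log2 fold change of 0.54, and 0.0821 for LPL, and on log2(FPKM + 0.1) it was 0.0619 and 0.0809.

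The 3 genes whose log2 CPM followed GPNMB most closely over the 6 libraries were MYOF (Pearson r = 0.997), ARHGEF28 (r = 0.996) and BASP1 (r = 0.994), as a description over libraries that form 2 separate groups. Their log2 fold changes were 0.27, 0.74 and 1.32.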

How the data were processed

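The authors deposited raw counts per gene for the 6 libraries, and FPKM values, normalized by the authors to transcript length and library size, for each library. Per the labels and the submitters' processing notes, CASAVA, STAR 2.7.1a and hg19 were used; the counting program, its strand setting and the annotation are not given in the sources used here. The FPKM values of Apatinib 1 came with 1 further per-sample column, which was not used.

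The 9 genes and the gene lists were chosen with earlier results of these data known. Counts were filtered with filterByExpr, scaled by TMM (factors 0.952 to 1.03) and compared with edgeR 4.0.16 (quasi-likelihood F test, Benjamini-Hochberg adjustment over 16290 genes) in R 4.3.3. For the 9 genes p-values are not given and DEG calls are only counted, since the genes were chosen with the contrast known. In each list up to 4 genes with the smallest edgeR p were named, besides those said to be named after their values were seen. A further gene that this rule names is not reported here. Alternatives used DESeq2 1.42.0, other scaling or filters, a replicate block, controls 1 and 2 summed, limma 3.58.1 on log2(FPKM + 1) or log2(FPKM + 0.1) for genes at a mean FPKM of at least 0.5, and each library left out. Exon overlaps came from GENCODE, and promoters from RefSeq (GRCh38.p14), used for sequences only. Both are on GRCh38 and not on hg19, so overlaps in the annotation behind the counts may differ. The scripts were tested on simulated data.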

Additional observations from a re-analysis of the deposited data

How the results depend on the processing

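No called value changed sign under any alternative that gave it a value (RRAGD and ATG9B were not fitted by limma). The count of DEGs over all genes was 292 with controls 1 and 2 summed, 796 with limma on log2(FPKM + 1) and 810 on log2(FPKM + 0.1), and ranged from 275 (without control 1) to 2594 (without control 3) when single libraries were left out. Of the 9 genes, 1 met the criteria with limma on either scale (8 genes tested), 3 with DESeq2, no filter or the replicate block (MITF added), and 1 to 3 with a library left out. The log2 fold change of GPNMB was 1.79 on log2(FPKM + 1), a scale that understates changes of low genes. The Rag and GATOR list held 1 DEG with no filter and 1 with the replicate block, and 0 to 1 with a library left out. The kinase list held 0 with no filter and with the block, and 0 to 1 with a library left out. The lysosome list held 0 DEGs with controls 1 and 2 summed and 0 to 7 with a library left out. The autophagy list held 1 with these controls summed and 1 to 5 with a library left out, and the GPNMB partners 0 to 3. With the replicate number as a block, 2215 genes were DEGs. Same-numbered libraries did not deviate together (correlations -0.259, 0.0808 and -0.220). With 3 libraries a group and controls 1 and 2 nearly alike, these correlations cannot show whether the numbers pair the libraries. Among the genes named from the lysosome and autophagy lists, SQSTM1 alone met the criteria in every alternative; the cause of the losses without control 1 or 2 was not tested. With a library left out, the uncalled log2 fold changes of 3 markers crossed 0, running from -0.11 to 0.52 for CSF1R, from -0.014 to 0.25 for CTSK and from -0.0033 to 0.18 for PPARG.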
